A study of Drosophila melanogaster with 4 samples.

Results

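The 2 forms of the kinase Tao, D168A and D168D, were compared with each other in pole cells of Drosophila melanogaster, the germ-line precursors set aside at the posterior end of the embryo. The material was 4 Agilent arrays, all those of the series, with 2 colours each. Every array set RNA of cells that expressed a form (driven) against RNA of cells that carried the same transgene without a driver (non-driven). Within each dye orientation, the forms were set against each other as the log2 ratio of driven over non-driven cells with D168A minus the same ratio with D168D. This quantity is called the difference below. Of 10804 genes measured, 4249 had a difference of the same direction in both orientations (39.3%), 2394 of them higher with D168A (22.2%) and 1855 lower (17.2%). The other direction pattern, higher in one orientation and lower in the other, was found in 6513 genes (60.3%).

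In the D168A pair, driven cells came from embryos of nosGal4:VP16/nosGal4:VP16 mothers and non-driven cells from embryos of yw mothers, and the fathers of both carried UAS-tao-1(D168A) and EGFP-Vas. In the D168D pair the mothers were the same and the fathers carried UAS-tao-1(D168D) and EGFP-Vas. The nosGal4:VP16 driver acts through the nanos regulatory sequences and is brought in by the mother. FACS was used to isolate the cells, from stage 8 to 14 embryos, with EGFP-Vas as the germ-line marker. The labels call D168A dominant negative. For D168D the title of the series speaks of the wild-type protein, while gof is the tag in the sample titles. Driven RNA was labelled with Cy3 on 1 array of each form and with Cy5 on the other. Since the titles number both arrays of a form alike, they are treated as a dye swap of the same extracts, so each form is 1 replicate and no p-value was computed. All values below are on the log2 scale, and ± after a difference gives the distance of either orientation from their mean, which covers hybridisation and dye but no biological variation. Over all genes the median of this distance was 0.197, larger than the median absolute value of the mean difference, 0.137. Most genes given with ± were chosen for the same direction in both orientations, which favours a small ±. For them a small ± is therefore no measure of precision. Ratios hold no level of a gene, so the labelled cell type could not be checked against its markers. For the same reason, fewer cells of a type cannot be told apart from less RNA per cell.

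Tao is a kinase of the Ste20 family. It phosphorylates Hippo, the kinase at the head of the growth-restraining Hippo cascade, and it also acts on microtubules. Pole cells take up maternal RNA and protein of the germ plasm, keep their own transcription silent for a time, and then move through the midgut to the somatic gonad. A catalytically inactive form of a kinase is commonly used to interfere with the endogenous enzyme.

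Tao itself (NCBI Gene 32948) was about equally high with both forms. Its ratios on the Cy3-driven and the Cy5-driven array, the order used throughout, were 2.98 and 2.84 for D168A and 3.04 and 2.99 for D168D. Its difference between the forms was -0.11 ± 0.04, and 1 of its 2 probes had a difference below 0 in both orientations. The forms were thus compared at similar deposited ratios of Tao RNA. With the arrays scaled to one spread, an alternative that shrinks the wider arrays and stretches the narrower ones, the difference of Tao was 1.07. The Cy3-driven array of D168A was the narrowest, so it was stretched, and that of D168D the widest, so it was shrunk.

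**Figure D1:**
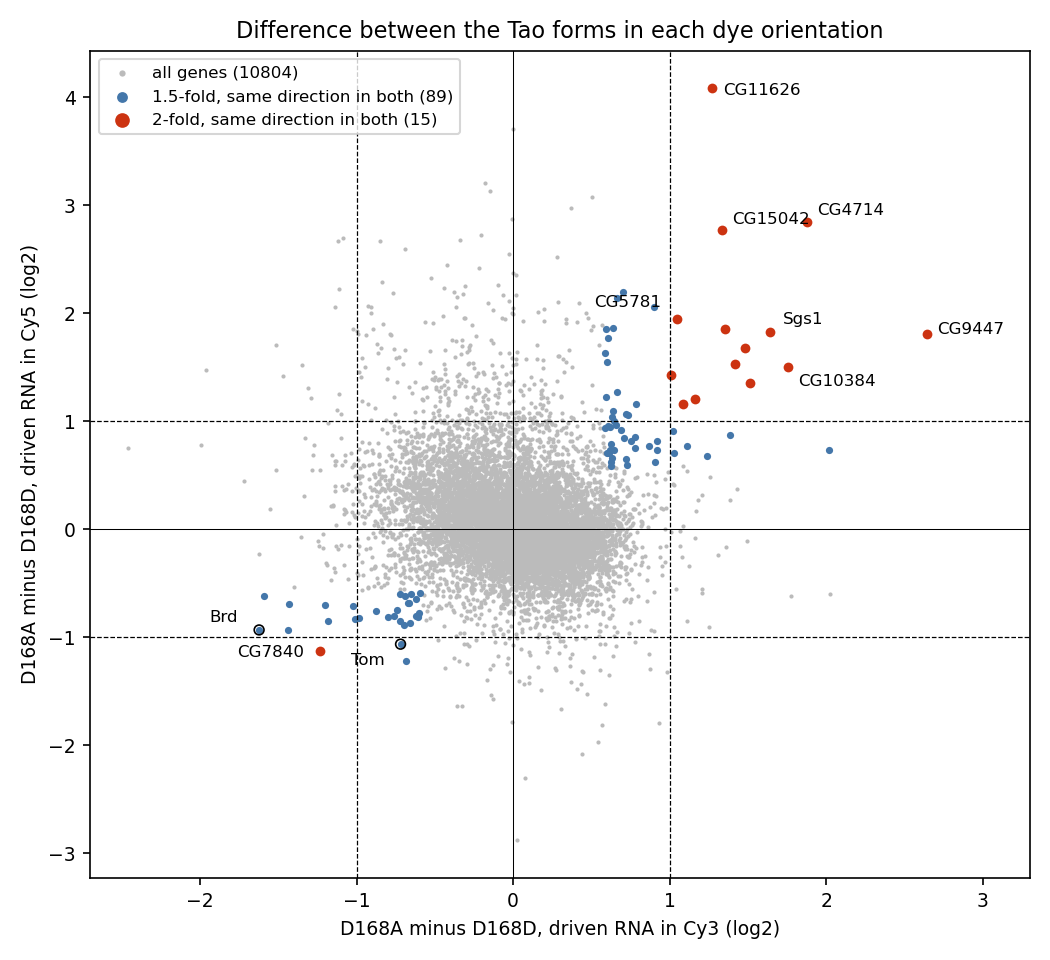
Difference of D168A minus D168D (log2) with driven RNA in Cy3 (horizontal axis) and in Cy5 (vertical axis), 1 point per gene over 10804 genes, with dashed lines at 2-fold. Coloured points have the same direction in both orientations and pass 1.5-fold (89 genes in all) or 2-fold (15 genes, 14 of them at upper right); the rings mark Brd and Tom, and the cloud as a whole slopes downwards.

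The orientations did not order the genes alike. Across the 10804 genes, the difference with driven RNA in Cy3 and that with driven RNA in Cy5 had a Pearson r of -0.21 and a Spearman rho of -0.26, a description over genes that share their 4 RNA sources and are not independent replicates. Of the ratios themselves, those of a dye swap had a Pearson r of -0.10 for D168A and 0.01 for D168D, while arrays of different forms in one orientation had 0.36 (Cy3) and 0.15 (Cy5). The scatter of the 2 differences shows this as a cloud that slopes downwards. At 2-fold in both orientations, 14 genes were higher with D168A (0.13% of all genes) and 1 was lower (0.00926%), while 14 passed 2-fold in opposite directions. At 1.5-fold, 59 were higher (0.546%) and 30 lower (0.278%), while 205 were opposite. At 3-fold there were 3 higher (0.0278%), 0 lower (0%) and 0 opposite. The share of genes with the same direction was 34.5% among the 5273 genes with 1 probe, 43.7% among the 4814 with 2 and 45.6% among the 717 with more. The shares of all genes set beside the gene lists below are not matched for number of probes. The arrays differed in their spread: the interquartile range over genes was 0.24 and 0.34 with D168A (driven RNA in Cy3 and Cy5) and 0.51 and 0.33 with D168D. With the arrays scaled to one spread, 23 genes were higher and 2 lower at 2-fold.

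The genes that were 2-fold higher with D168A are of mixed kinds. They include a gustatory receptor, a scavenger receptor, a serotonin receptor, a salivary glue gene and 10 genes that carry CG numbers. In 12 of the 14 the D168A mean was itself at least 1.5-fold up in driven cells, against 1.55% of all genes. In 8 of the 14 the D168D mean was at least 1.5-fold down, against 1.41% of all genes. The rule used these ratios, so both counts describe the chosen genes.

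CG4714 (NCBI Gene 36470) had the highest difference by the smaller of its 2 orientations. Its ratios were 1.26 and 0.94 with D168A and -0.62 and -1.91 with D168D. Both D168A arrays lay above 0 and both D168D arrays below, and the difference was 2.36 ± 0.49, or 5.15-fold. CG9447 (NCBI Gene 35597) was at 3.61 and 1.67 with D168A, against 0.97 and -0.14 with D168D. Here the D168A array with driven RNA in Cy3 was far above the others, and the difference was 2.23 ± 0.42. CG11626 was at 1.66 and 2.23 with D168A, against 0.38 and -1.85 with D168D. Its mean difference of 2.68 was the highest of the called genes, but its orientations differed by 1.41 on either side of that mean.

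Receptors on the cell surface account for 3 of the called genes. Gr98b, a member of the gustatory receptor family, was at 1.15 and 1.27 with D168A, against -0.34 and -0.41 with D168D. The arrays of each form lay close together, and the difference was 1.58 ± 0.10. It stood apart from its family: of 52 gustatory receptor genes measured, 7 were higher in both orientations (13.5%, against 22.2% of all genes) and 4 lower (7 and 7 with the arrays scaled to one spread), and the list medians were 0.14 and -0.07 in the 2 orientations. The other family member past 1.5-fold was Gr92a, at 0.20 and -0.31 with D168A, against -0.40 and -2.08 with D168D. 5-HT1A, a G-protein-coupled serotonin receptor, was at 0.30 and 0.92 with D168A, against -0.71 and -0.50 with D168D. Its difference was 1.22 ± 0.21, and its 2 probes gave 1.48 and 0.95. It missed the threshold with every probe required and with the arrays scaled to one spread.

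Sr-CI, a class C scavenger receptor that macrophage-like hemocytes use to bind bacteria, was at 0.61 and 0.21 with D168A, against -0.81 and -1.32 with D168D. The forms lay on opposite sides of 0, and the difference was 1.48 ± 0.06. Markers of hemocytes and fat body did not move with it as a group. Of 35 measured, 7 were higher in both orientations (20%, against 22.2% of all genes) and 10 lower (28.6%, against 17.2%). The list medians were -0.08 and 0.01. The list members named next fall outside the rule for named genes and were chosen after their values were seen. The hemocyte genes srp, a GATA factor, and crq, a CD36-family receptor, had differences of -0.15 ± 0.03 and -0.25 ± 0.04. Both are among the 10 lower members, beside 7 higher ones, so they do not stand for the list. Values of the hemocyte markers Pxn and He are not given here. Hml, a hemolectin of hemocytes, was at -0.98 in the Cy3 orientation and at 0.75 in the Cy5 orientation. Among the other class C receptors, Sr-CII had differences of 0.64 and 0.08, Sr-CIII of -0.04 and -0.58 and Sr-CIV of -0.27 and -0.01.

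CG10384 was at 1.74 and 1.18 with D168A, against -0.02 and -0.32 with D168D, a difference of 1.63 ± 0.13. CG30033 was at 1.70 and 0.87 with D168A, against 0.18 and -0.49 with D168D, a difference of 1.44 ± 0.08. In both genes, chosen by these ratios, both D168A arrays lay above both D168D arrays, a pattern not counted over all genes. CG10175 was at 0.65 and 0.28 with D168A, against -0.43 and -0.88 with D168D, but its 2 probes disagreed, with differences of 2.10 and 0.14. CG5781 was at 1.19 and 0.86 with D168A, against 0.14 and -1.08 with D168D.

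For 4 of the 14 genes a ratio on some array is deposited as exactly 0 (28.6%, against 4.36% of all genes). The salivary glue gene Sgs1 was at 1.64 and 0 with D168A, against 0 and -1.83 with D168D. For CG9168 the same arrays gave 1.35 and 0, then 0 and -1.85. In both genes the Cy5-driven D168A array and the Cy3-driven D168D array hold the same value, so the difference in either orientation rests on 1 array. CG15042 was at 1.33 and 0.53 with D168A, against 0 and -2.25 with D168D, and CG15353 at 1.16 and 1.14 with D168A, against 0 and -0.07 with D168D. In CG15353 the D168A arrays lay close together. The D168D array with driven RNA in Cy5 was at least 2-fold down in 7 of the 14 called genes and in 128 of all genes, and 0 of the 14 were so on the other D168D array. Of the 14, 12 have a single probe (85.7%, against 48.8% of all genes). The part of dim spots in these values was not tested, since no intensities were used here.

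**Figure D2:**
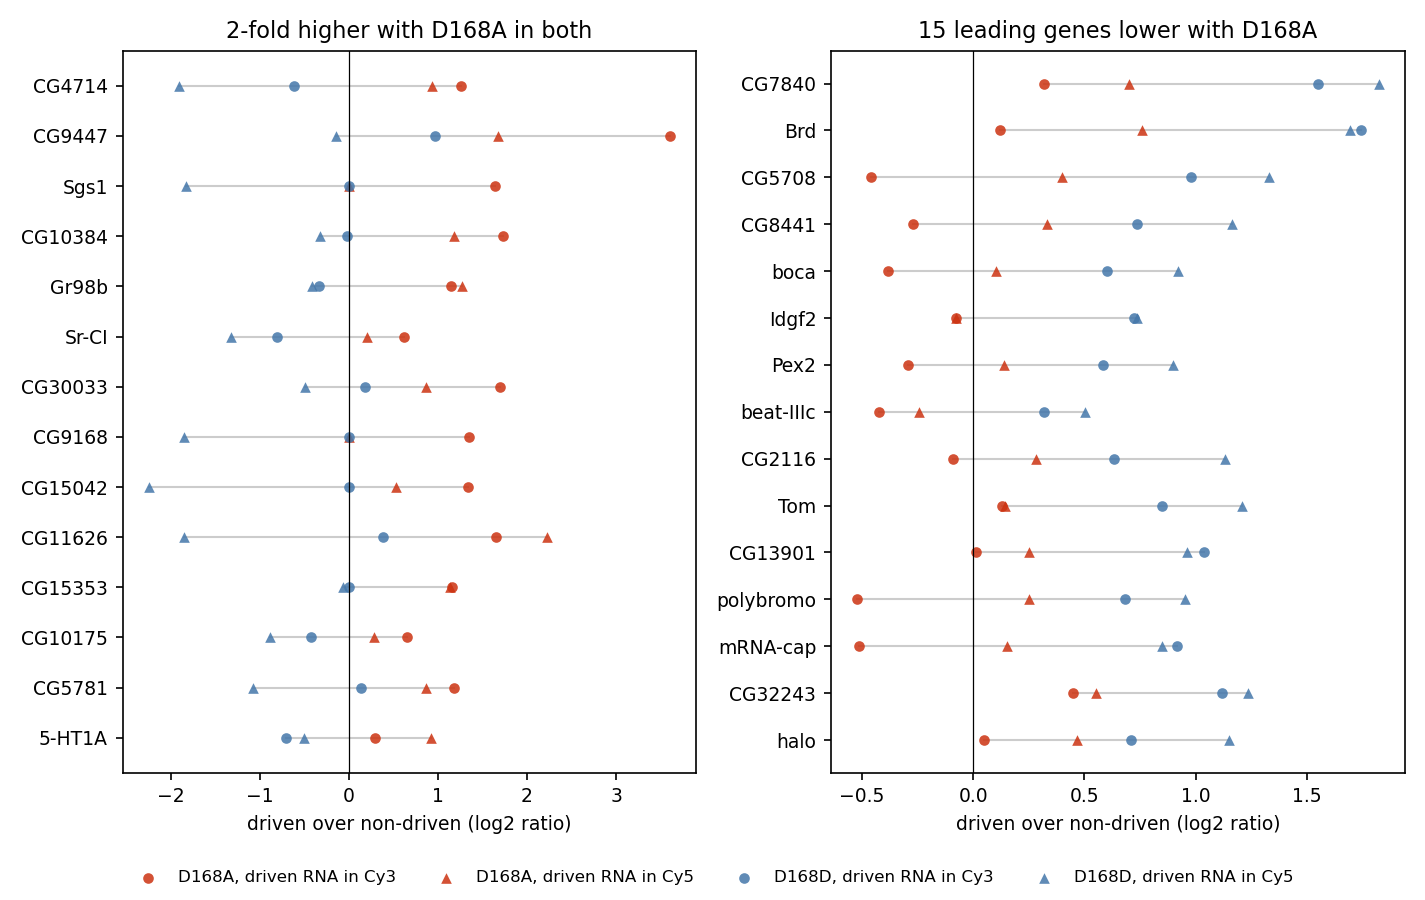
Log2 ratio of driven over non-driven cells on each of the 4 arrays (horizontal axis) for the 14 genes that were 2-fold higher with D168A in both orientations (left) and the 15 leading genes that were lower (right); circles have driven RNA in Cy3, triangles in Cy5, and the grey line spans the arrays. On the left the D168D arrays reach down to -2.25 (CG15042), whereas on the right the D168D arrays lie between 0.32 (beat-IIIc) and 1.82 (CG7840) and the D168A arrays to their left.

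Below the 2-fold threshold, the next genes higher with D168A were Ccdc114, CG10734 and CG32212, whose smaller differences were 0.91, 0.90 and 0.87. The 3 called genes nearest to it, CG10175, CG5781 and 5-HT1A, were at 1.08, 1.05 and 1.01. Ccdc114, whose vertebrate relative belongs to the docking complex of ciliary dynein, was at 0.01 and -0.22 with D168A, against -1.01 and -1.13 with D168D. Its difference of 0.96 ± 0.06 thus came from lower ratios with D168D. Rrp4, a subunit of the RNA exosome, was at 0.17 and 0.52 with D168A, against -0.75 and -0.30 with D168D. IA-2, a receptor-type phosphatase homologue of dense-core vesicles, had a difference of 0.97 ± 0.19, and each of its forms had a positive and a negative array. CG5928 was at 0.82 ± 0.04.

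Among members of the gene lists that passed 1.5-fold, RpS10a, a paralogue of the ribosomal protein S10 gene, was at 0.04 and -0.04 with D168A, against -0.88 and -0.77 with D168D. It was the 1 cytosolic ribosomal protein gene of 36 to pass. The list had 12 higher (33.3%, against 22.2% of all genes), 7 lower (19.4%, against 17.2%) and medians of -0.09 and 0.09. Since it has a close paralogue, its signal may not be its own. eIF4E3, a paralogue of the cap-binding initiation factor eIF4E, was at -0.21 and -0.02 with D168A, against -0.84 and -0.61 with D168D, and both probes were higher in both orientations. Like RpS10a, it was near 0 with D168A and down in driven cells with D168D. Qsox3, a sulfhydryl oxidase, was at 1.42 and 1.34 with D168A, against -0.60 and 0.61 with D168D, so that the D168A arrays were close and the D168D arrays far apart. The odorant-binding protein gene Obp22a had a difference of 0.79 ± 0.03, with a deposited 0 on 1 array.

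At 1.5-fold in both orientations, 30 genes were lower and 59 higher with D168A. Of the 59, the D168A mean was at least 1.5-fold up in 26 (44.1%) and the D168D mean at least 1.5-fold down in 28 (47.5%). Of the 30, the D168D mean was at least 1.5-fold up in 20 (66.7%, against 1.87% of all genes), and the D168A mean was 1.5-fold down in 1. The choice of these genes used the same ratios, so the counts only describe them. The gene that was down with D168A was Ugt50B3, a UDP-glycosyltransferase, at -1.003 and -1.08 with D168A, against -0.34 and -0.21 with D168D. All 3 of its probes were lower in both orientations.

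CG7840 (NCBI Gene 34136) was the 1 gene lower at 2-fold. It was at 0.32 and 0.70 with D168A, against 1.55 and 1.82 with D168D, a difference of -1.18 ± 0.05. All 4 arrays were above 0, and the forms did not overlap, in a gene chosen by these ratios. How many of all genes lack overlap was not counted. With the arrays scaled to one spread, the difference was -0.91. The next genes outside the threshold were Brd, CG5708 and CG30278, whose smaller differences were -0.93, -0.93 and -0.85. CG5708 was at -0.46 and 0.40 with D168A, against 0.98 and 1.33 with D168D. CG30278 was at -1.18 and 0.58 with D168A, against 0 and 1.44 with D168D, so its forms overlapped.

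Brd and Tom, the Bearded and Twin of m4 genes, encode small proteins that bind Neuralized and hold back Delta endocytosis in Notch signalling. Brd was at 0.12 and 0.76 with D168A, against 1.74 and 1.69 with D168D. The difference was -1.28 ± 0.34, and its probes gave -1.53 and -1.03. Tom was at 0.13 and 0.14 with D168A, against 0.85 and 1.21 with D168D. The difference was -0.89 ± 0.17, and the probes gave -0.73 and -1.05. In both genes, which were chosen by these ratios, the D168D arrays were the higher ones, without overlap, a pattern not counted over all genes. They are also neighbours: in the RefSeq order of protein-coding genes (Release 6 plus ISO1 MT), Tom and Brd formed the 1 adjacent pair among the 30 lower genes, and the 59 higher genes held 0 such pairs.

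The wider list of Notch pathway genes with the E(spl) and Bearded genes had 11 of 21 measured members lower in both orientations (52.4%, against 17.2% of all genes) and 1 higher, and 9 of opposite direction. Its medians were -0.20 and -0.16 in the 2 orientations, against 0.02 and 0.02 over all genes, and Brd and Tom passed 1.5-fold. The members named next fall outside the rule for named genes and were chosen after their values were seen. E(spl)mbeta-HLH, a bHLH repressor that Notch activates, was at -0.27 and -0.12 with D168A, against 1.13 and 0.42 with D168D. E(spl)m7-HLH, of the same class, was at 0.06 and -0.06 with D168A, against 0.88 and 0.36 with D168D. E(spl)malpha-BFM, a Bearded-family gene of the E(spl) complex, was at -0.22 and -0.30 with D168A, against 0.30 and 0.14 with D168D. The forms did not overlap in these 3 genes, which only describes genes picked for their values. The share of all genes without overlap was not counted. Their corepressor gro had a difference of -0.33 ± 0.03. E(spl)m4-BFM, another Bearded-family gene, went opposite ways in the 2 orientations, with differences of -0.31 and 0.48. Psn, the protease subunit of gamma-secretase, was the 1 higher member, at 0.02 ± 0.01.

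**Figure D3:**
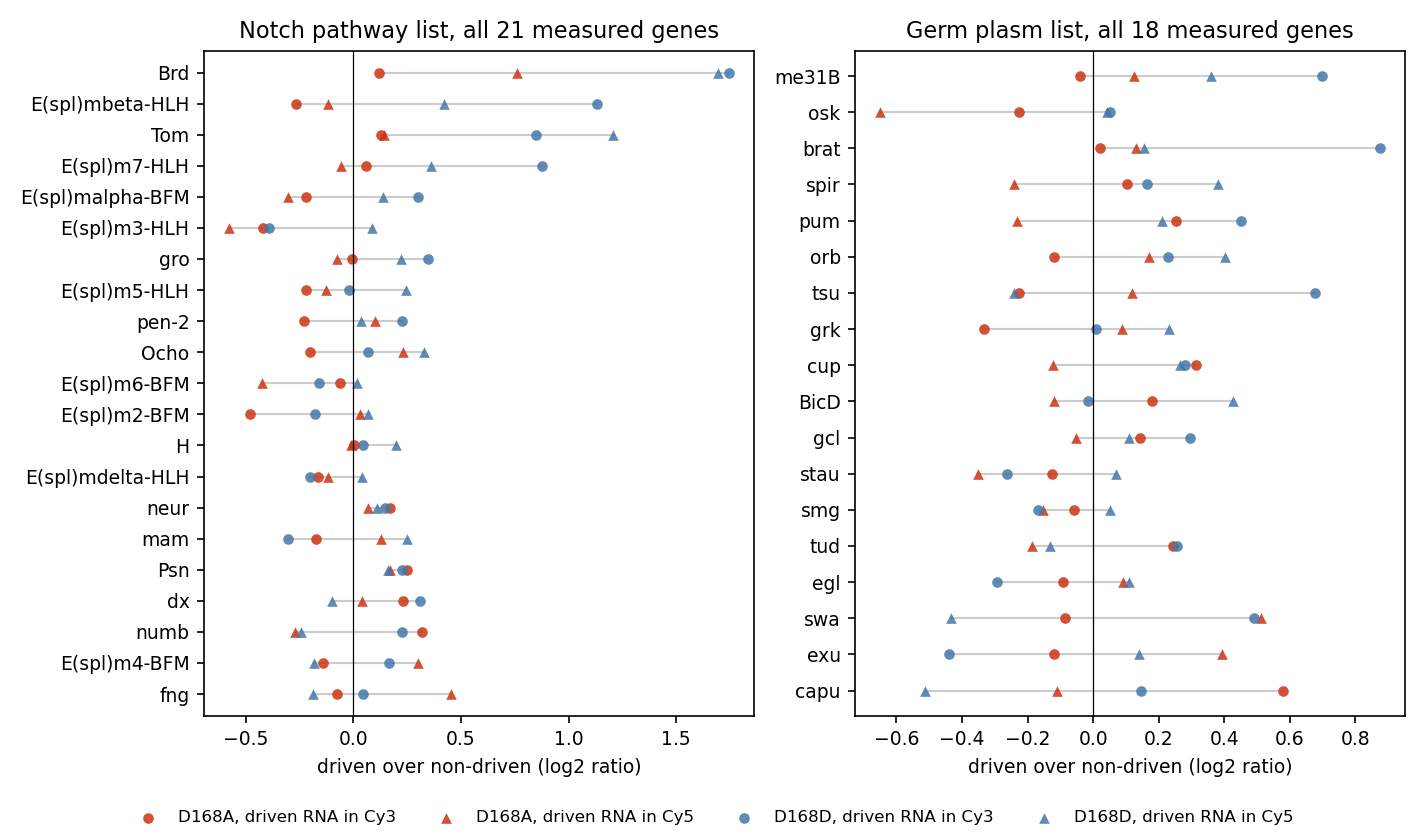
Log2 ratio of driven over non-driven cells on each array (horizontal axis) for all 21 measured genes of the Notch pathway list (left) and all 18 of the germ plasm list (right), ordered by the mean difference between the forms; red is D168A, blue D168D, circles have driven RNA in Cy3 and triangles in Cy5. Brd, E(spl)mbeta-HLH and Tom lead the left panel, with D168D arrays from 0.42 (E(spl)mbeta-HLH) to 1.74 (Brd), while toward the bottom of either panel the forms overlap.

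A list of early zygotic genes, some with roles other than cellularization, had 8 measured members. Of these, 5 were lower in both orientations (62.5%, against 17.2% of all genes) and 0 higher, with medians of -0.25 and -0.20. With the arrays scaled to one spread, 3 were lower and 1 higher. Of the 5, T48 and trbl were at only -0.03 in the Cy3 orientation. The members nullo and bnk went opposite ways, at -0.34 and 0.19, and at -0.16 and 0.20 (all 4 chosen after their values were seen). The gene halo, which controls the direction of lipid droplet transport in the early embryo, was at 0.05 and 0.47 with D168A, against 0.71 and 1.15 with D168D. Its difference was -0.67 ± 0.01, and both probes were lower in both orientations. Sry-alpha, needed for the actin network of cellularization, was at 0.25 and -0.03 with D168A, against 0.64 and 0.71 with D168D (chosen after its values were seen). In the other patterning lists, dorsoventral genes had 10 of 27 lower (37%) and 3 higher, and segment polarity genes 4 of 11 lower (36.4%) and 1 higher. On scaled arrays the dorsoventral counts were 7 lower and 2 higher. The segment polarity medians were -0.17 in the Cy3 orientation and -0.001 in the Cy5 orientation. Gap, head and terminal genes had 4 of 19 lower (21.1%) and 2 higher, and pair-rule genes 2 of 8 lower (25%) and 0 higher. The pair-rule medians differed in sign, at -0.09 and 0.19. Homeotic genes had 1 of 7 in each direction (14.3%). For the gap and homeotic lists the lower share was near the 17.2% of all genes. The BMP and activin list had 6 of 18 lower (33.3%) and 3 higher (16.7%), with medians of opposite sign, 0.005 and -0.11. Its member past 1.5-fold was shn, a zinc-finger factor of Dpp signalling, at 0.02 and -0.36 with D168A, against 0.63 and 0.45 with D168D. The Dpp ligand gene dpp (chosen after its values were seen) had a difference of -0.51 ± 0.06, with D168D at 1.003 and 0.96.

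The other leading lower genes were of mixed function. Idgf2, an imaginal disc growth factor of the chitinase-like family that stands in the hemocyte and fat body list, was at -0.08 and -0.08 with D168A, against 0.72 and 0.74 with D168D. The difference of -0.81 ± 0.01 was close to equal in both orientations. beat-IIIc, an immunoglobulin-domain gene of the Beaten path family, was at -0.42 and -0.24 with D168A, against 0.32 and 0.50 with D168D. Its 3 probes were all lower, but unequally, at -1.27, -0.80 and -0.17. boca, an endoplasmic reticulum chaperone of LDL-receptor-family proteins, was at -0.38 and 0.10 with D168A, against 0.60 and 0.92 with D168D. Pex2, a peroxisome assembly factor, had a difference of -0.82 ± 0.06.

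Nuclear genes were also among them. polybromo, a subunit of a Brahma chromatin-remodelling complex, was at -0.52 and 0.25 with D168A, against 0.68 and 0.95 with D168D. mRNA-cap, the mRNA capping enzyme, was at -0.51 and 0.15 with D168A, against 0.92 and 0.85 with D168D. In both genes the D168A arrays lay on opposite sides of 0 and below both D168D arrays. Both were chosen by these ratios, and the pattern was not counted over all genes. The uncharacterised genes CG8441, CG2116, CG13901 and CG32243 had differences of -0.92 ± 0.09, -0.79 ± 0.06, -0.87 ± 0.16 and -0.68 ± 0.01. The small heat shock gene Hsp27 was at 0.01 and -0.08 with D168A, against 0.61 and 0.70 with D168D. Its list of heat shock genes had 5 of 17 higher (29.4%, against 22.2% of all genes) and 7 lower (41.2%, against 17.2%). On scaled arrays these were 6 and 6, and the medians as deposited were 0.02 and -0.21.

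The germ plasm gives pole cells their fate. Of 18 measured germ plasm and maternal RNA localization genes, 9 were lower with D168A in both orientations (50%, against 17.2% of all genes). A further 2 were higher (11.1%, against 22.2%) and 7 of opposite direction, and 0 passed 1.5-fold. The medians of the difference were -0.11 and -0.18. With the arrays scaled to one spread, 6 were lower and 2 higher. The members named here were chosen after their values were seen. osk, which organises the germ plasm, was at -0.23 and -0.65 with D168A, against 0.05 and 0.04 with D168D. gcl, needed for pole cell formation, had a difference of -0.16 and tud, a Tudor-domain scaffold of the germ plasm, one of -0.03 ± 0.02. The nucleator capu and the RNA localization factor exu went the other way, at 0.42 ± 0.01 and 0.29 ± 0.03. No value was used here for vas, nos or pgc.

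Among the other germ-line lists, the piRNA pathway had 7 of 21 higher (33.3%, against 22.2% of all genes) and 5 lower (23.8%, against 17.2%). On scaled arrays these counts were 11 and 6. The germline differentiation list had 2 of 13 in each direction (15.4%), a lower share near that of all genes. Of 10 genes of germ cell migration and its lipid signals, 4 were lower (40%) and 0 higher. The gonadal soma list, markers of the cells that the pole cells join, had 3 of 9 lower (33.3%) and 2 higher (22.2%), with medians of 0.09 and -0.16.

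Tao belongs to the Ste20 family and its relatives act in several kinase cascades. Of 8 Ste20-family kinases, 6 were lower in both orientations (75%, against 17.2% of all genes) and 1, fray, was higher, and 0 passed 1.5-fold. Tao, the driven transgene itself, is counted among the 6. On scaled arrays 5 were lower and 0 higher, and on centred arrays 6 and 0. msn, the MAP4K that acts in JNK signalling, had a difference of -0.32 ± 0.01 and hpo, the Hippo kinase, of -0.23 ± 0.09. In the Hippo pathway list, 8 of 28 were lower (28.6%), 1 higher and 19 of opposite direction, with medians of -0.02 and -0.13. Its largest same-direction member was app, a palmitoyltransferase that acts with the cadherin Fat, at 0.16 and -0.09 with D168A, against 0.86 and 0.46 with D168D. The JNK and p38 list had 7 of 19 lower (36.8%) and 3 higher, and the torso, EGFR and Ras list 8 of 17 lower (47.1%) and 1 higher. For microtubule and motor genes, on which Tao kinases also act, 12 of 32 were lower (37.5%) and 3 higher. Their medians were -0.13 and -0.10, with 0 past 1.5-fold. Members named in this paragraph were chosen after their values were seen.

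Cell polarity and junction genes had 10 of 22 lower (45.5%, against 17.2% of all genes) and 1 higher, with medians of -0.20 and -0.04. Polycomb and trithorax genes, which hold transcription states, had 10 of 20 lower (50%) and 3 higher (15%). Their medians were -0.35 and -0.06, so that list's shift was mostly in the orientation with driven RNA in Cy3. Cell cycle and replication genes had 14 of 43 lower (32.6%) and 3 higher, with medians of -0.10 and -0.09. Cell death genes had 6 of 18 lower (33.3%) and 3 higher, with medians of opposite sign, -0.09 and 0.08. Their median over gene means went from -0.03 to 0.01 on scaling. In all these lists 0 members passed 1.5-fold in both orientations.

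Over all genes 22.2% were higher and 17.2% lower, so more higher than lower members is also the background. The gut proteases of the trypsin and Jonah families had 11 of 24 higher (45.8%) and 2 lower, and the midgut and yolk list, which shares proteases with it, 11 of 27 higher and 2 lower. Epidermis, cuticle and trachea genes had 9 of 20 higher and 1 lower, and spermatogenesis and male reproductive genes 11 of 29 higher and 2 lower. The salivary glue and larval secreted list had 5 of 12 higher and 0 lower, or 3 and 2 on scaled arrays. Odorant receptors had 12 of 48 higher (25%) and 1 lower, so their share of higher genes was near that of all genes and their share of lower genes small. On scaled arrays the lower members numbered 5 in the midgut and yolk list and 3 each in the epidermal list and the odorant receptors. In these lists Sgs1 was the 1 member past 1.5-fold. Their signal over background is unknown.

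Mitochondrial ribosomal proteins had 22 of 65 higher (33.8%) and 6 lower (9.23%), with medians of 0.04 and 0.15. Oxidative phosphorylation genes had 19 of 70 higher (27.1%) and 11 lower (15.7%), near the shares of all genes, with medians of 0.03 and 0.06 against 0.02 and 0.02. Muscle genes had 5 of 16 higher (31.2%) and 3 lower (18.8%). Genes of neurons and glia had 5 of 23 higher (21.7%) and 4 lower (17.4%), near the shares of all genes, or 4 and 5 on scaled arrays. Of the 52 lists, 16 had medians below 0 in both orientations and 11 above 0 in both, while the other 25 had medians that differed in sign or a median of 0. A list's median over the gene means can depart from both: antimicrobial genes had medians of -0.10 and -0.07 in the orientations but of 0.04 over the means.

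**Figure D4:**
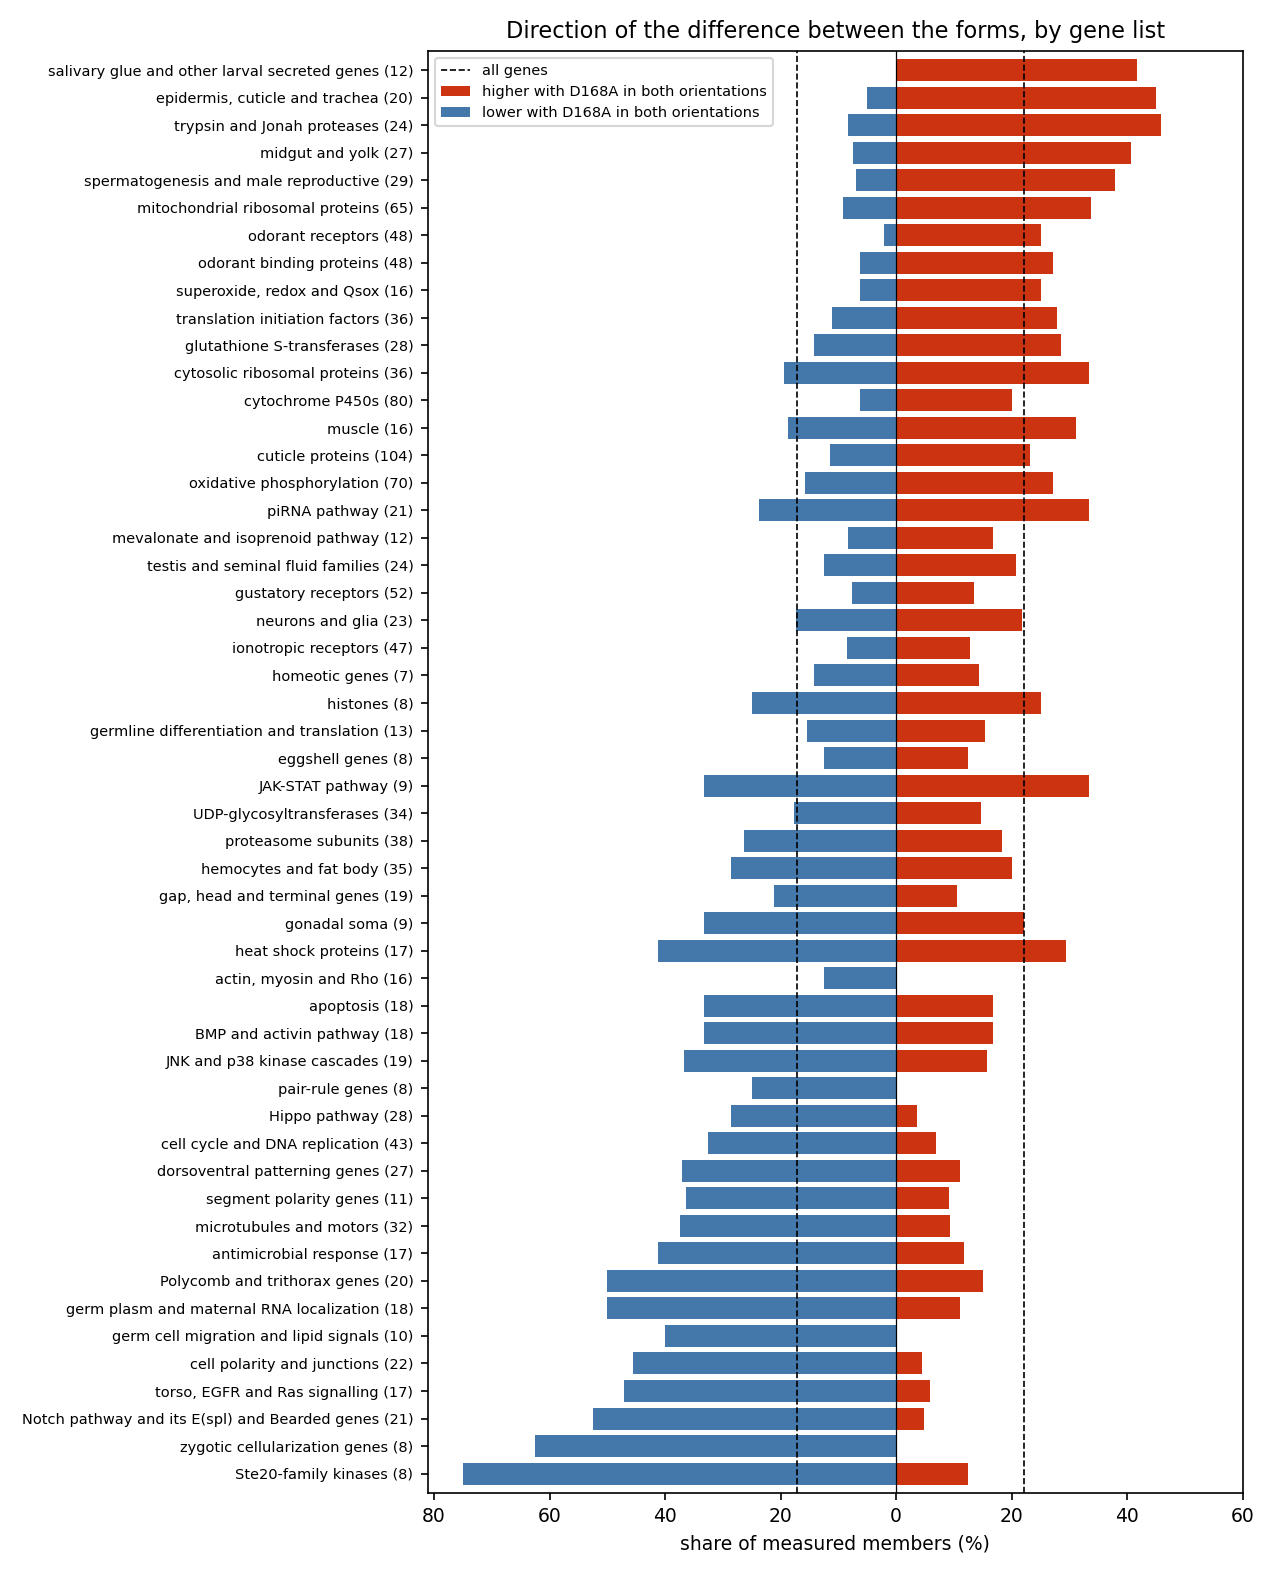
Share of the measured members of each gene list (number in brackets) that were higher (red, to the right) or lower (blue, to the left) with D168A in both dye orientations, in percent; dashed lines give the shares over all genes, 22.2% and 17.2%. Ste20-family kinases (75%, Tao included), the list of early zygotic genes labelled cellularization (62.5%) and the Notch list (52.4%) have the highest shares of lower members. The trypsin and Jonah proteases (45.8%) have the highest share of higher members.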

How the data were processed

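The series matrix gives a log10 ratio per feature, which the authors deposited for 4 Agilent arrays of 2 colours. The submitters' processing notes name Agilent Feature Extraction, version 7.1. Labelling started from 100 ng of total RNA, per the labels' protocols. How background and dyes were corrected, and whether values were centred, is not given in the sources used here. Base 10 was read from the limit of 2 in either direction, the 100-fold limit of that software. Direction was taken as driven over non-driven on all arrays, without a change of sign. Both arrays with driven RNA in Cy3 write every 0 as a negative 0 (446 and 583 features), which a change of sign before deposit would leave, and Tao is above 0 on all 4.

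Of 22575 features, 17328 with a single gene symbol in the platform annotation were used, 326 had several and 4921 none. By gene ID, 17324 matched RefSeq (Release 6 plus ISO1 MT) and 0 symbols changed. Probes were averaged into 10804 genes and converted to log2 (Python 3.11.15, pandas 2.3.3). No coordinates or sequences are printed; the RefSeq gene order served to find neighbouring genes. A gene was called where the difference reached 2-fold in the same direction in both orientations; no test was run, since each form is 1 replicate. Array medians over genes were 0.00078, 0.01, 0 and -0.0022. Precision is limited by the number of arrays.

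Named were Tao, every called gene, the 15 leading genes without a deposited 0 in each direction, list members past 1.5-fold and the 3 genes on either side of the threshold. The 52 lists had 5 or more measured members. Other genes named are marked in the text as outside this rule. Members and lists were chosen with earlier results of these data known, and some list entries were corrected after values had been seen. Alternatives changed the fold threshold, centring, spread, zeros, probes, orientation, log base and sign.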

Additional observations from a re-analysis of the deposited data

Results flagged for a closer look

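In 9 of the named genes both D168A arrays lay on one side of 0 and both D168D arrays on the other, a pattern that 530 of all 10804 genes have (4.91%). The named genes were chosen by these same ratios, which favours that pattern, so the count only describes them. The difference between the forms was not tested, since each form is 1 replicate. Of these 9, 7 were higher with D168A: CG4714 by 2.36, CG10384 by 1.63, Gr98b by 1.58, Sr-CI by 1.48, 5-HT1A by 1.22, CG10175 by 1.12 and Rrp4 by 0.87 on the log2 scale. The other 2, Idgf2 at -0.81 and beat-IIIc at -0.75, were lower with D168A.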

How the results depend on the processing

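The main rule called 14 genes higher and 1 lower. Centring each array and the median of probes gave the same 15 genes, 13 passed with every probe required (without 5-HT1A and CG10175), and 11 were left without genes deposited at 0. Higher and lower counts moved to 59 and 30 at 1.5-fold and 3 and 0 at 3-fold, by construction, and to 24 and 5 when probes were counted. With the arrays scaled to one spread they were 23 and 2, with 13 of the 15 kept and 5-HT1A and CG7840 lost; Tao then changed sign, to 1.07. The Cy3 orientation alone gave 47 and 87, the Cy5 orientation alone 360 and 78, and the mean of both 58 and 8. Read as log2, the values gave 0 and 0, since every ratio shrinks. With the Cy3-driven arrays turned in sign, 14 and 0 genes met the rule, those of opposite direction as deposited. Unless the construction shows it, the cause was not tested. Apart from Tao, the 45 named genes kept their direction under the alternatives that give them a value. For either orientation alone this was fixed beforehand, since the genes were chosen for the same direction in both. Centring moved no named gene by more than 0.0085, and leaving out genes at 0 moved none, so these say little about stability. Of the 52 list medians, 2 changed sign on centring, 7 on scaling, 2 without genes at 0, 17 in the Cy3 orientation alone and 9 in the Cy5 orientation alone. No paired analysis was possible because each form has 1 replicate number, and for the same reason no replicate could be left out. Signal over background is unknown.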

Other observations

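Among the 5247 features without exactly 1 gene symbol, 23 were at least 2-fold higher with D168A in both orientations, 3 were lower, and 53 passed 2-fold in opposite directions.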
